A study of Homo sapiens with 9 samples.

Results

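Canonical direct target genes of YAP were followed across 9 Affymetrix arrays of Hep3B, a line derived from a human hepatocellular carcinoma. The 8 genes, CCN1, CCN2, ANKRD1, AMOTL2, CRIM1, AXL, LATS2 and PTPN14, were chosen by name from the array annotation. Each had 1 probe set, so 8 of the 33297 probe sets of the value table and 8 of 18417 named genes were involved. The arrays formed 3 groups of 3: cells taken 24 h after transfection with a YAP-specific siRNA, cells taken 24 h after transfection with a nonsense siRNA, and untreated cells. Transfection used Oligofectamine in both siRNA groups, and the untreated cells received no siRNA; the comparison of the siRNA groups asked which transcripts depend on YAP, and the nonsense siRNA served as the control for transfection. All samples are of 1 cell line, with no genetic change given in the labels. The sample titles begin with HUH, whereas the cell line field names Hep3B, which is followed here. Whether the 3 samples of each group were grown as separate cultures is not stated in the labels, so p-values measure the spread between these samples, which may be technical. Signals are log2 array signals, on which 1 unit is a doubling, and precision is set by the number of arrays.

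YAP, encoded by YAP1, is a transcriptional coactivator that has no DNA-binding domain of its own and reaches its target genes mainly through TEAD transcription factors. The Hippo kinase cascade phosphorylates YAP and keeps it out of the nucleus. Several target genes encode proteins that in turn restrain YAP, among them LATS2, AMOTL2 and PTPN14, so the list joins outputs of the pathway with its feedback inhibitors. In liver, YAP is known for controlling organ size, and its overactivity drives liver tumours in mice.

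The target genes are known for TEAD sites in their promoters or enhancers, so the stretch around each gene start is shown first. RefSeq windows of 300 bases (250 before and 50 after the start, GRCh38.p14) were found for 6 of the 8 genes; CCN1 and CRIM1 had no entry. All 4 windows of the genes with an entry that fell against both controls, as described below, and both windows of AXL, which did not, are printed 5′ to 3′ on the strand of the gene, with matches to the TEAD core motif GGAATG, or CATTCC on the other strand, in capitals. They lie at chr6:131951323-131951622, minus strand, for CCN2, at chr10:90921038-90921337, minus strand, for ANKRD1, at chr3:134375368-134375667 and chr3:134374398-134374697, minus strand, for the upstream and the downstream start of AMOTL2, and at chr19:41218973-41219272 and chr19:41226505-41226804, plus strand, for the upstream and the downstream start of AXL.
CCN2: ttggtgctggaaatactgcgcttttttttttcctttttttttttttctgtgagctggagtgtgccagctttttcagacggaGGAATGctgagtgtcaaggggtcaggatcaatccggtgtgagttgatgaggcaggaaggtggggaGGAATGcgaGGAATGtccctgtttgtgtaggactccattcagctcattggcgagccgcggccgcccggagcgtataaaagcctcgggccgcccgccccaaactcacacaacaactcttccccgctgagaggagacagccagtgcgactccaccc
ANKRD1: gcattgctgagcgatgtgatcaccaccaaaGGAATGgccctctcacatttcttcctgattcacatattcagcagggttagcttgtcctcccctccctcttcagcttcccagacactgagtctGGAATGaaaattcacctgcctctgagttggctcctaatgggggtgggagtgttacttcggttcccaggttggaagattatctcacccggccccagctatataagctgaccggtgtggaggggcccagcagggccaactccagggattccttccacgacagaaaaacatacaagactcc
AMOTL2 upstream: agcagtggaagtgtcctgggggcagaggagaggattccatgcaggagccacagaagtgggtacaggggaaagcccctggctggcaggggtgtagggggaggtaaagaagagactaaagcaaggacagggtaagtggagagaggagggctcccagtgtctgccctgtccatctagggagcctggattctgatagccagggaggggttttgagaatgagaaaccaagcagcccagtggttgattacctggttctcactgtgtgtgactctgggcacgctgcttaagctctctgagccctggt
AMOTL2 downstream: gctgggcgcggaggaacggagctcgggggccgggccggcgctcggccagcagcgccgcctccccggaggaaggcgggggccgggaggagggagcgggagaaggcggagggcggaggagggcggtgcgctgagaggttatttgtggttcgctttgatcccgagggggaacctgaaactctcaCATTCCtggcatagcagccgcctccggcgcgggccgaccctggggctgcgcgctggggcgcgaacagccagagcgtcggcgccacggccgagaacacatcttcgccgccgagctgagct
AXL upstream: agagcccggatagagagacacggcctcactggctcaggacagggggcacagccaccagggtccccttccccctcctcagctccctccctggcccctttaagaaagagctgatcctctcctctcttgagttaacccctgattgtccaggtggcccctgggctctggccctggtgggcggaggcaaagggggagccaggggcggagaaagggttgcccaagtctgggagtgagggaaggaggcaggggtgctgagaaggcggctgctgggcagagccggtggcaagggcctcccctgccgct
AXL downstream: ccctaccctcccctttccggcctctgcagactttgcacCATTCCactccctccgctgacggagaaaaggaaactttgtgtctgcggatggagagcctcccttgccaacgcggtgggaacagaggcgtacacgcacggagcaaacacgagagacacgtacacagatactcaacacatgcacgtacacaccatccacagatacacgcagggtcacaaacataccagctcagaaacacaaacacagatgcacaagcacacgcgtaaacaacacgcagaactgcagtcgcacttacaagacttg

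The CCN2 window held 3 matches, beginning at -169, -104 and -95 from the gene start. ANKRD1 held 2 matches, beginning at -220 and -128. AMOTL2 held 1 match at its downstream start, beginning at -69, and 0 at its upstream start. AXL likewise held 1 match at its downstream start, beginning at -212, and 0 at its upstream start, so that genes that fell and AXL both had windows with and without a match. LATS2 held 1 match just inside the transcript, beginning at 10 after the start, and PTPN14 held 1, beginning at -200. At least 1 match was thus present in a window of all 6 genes with an entry, and in 6 of their 8 windows. Of all 35116 RefSeq windows of this length, 14.03% held at least 1 match, 1.37% at least 2 and 0.128% at least 3. Of 2 other motifs searched on both strands, the first was TGANTCA, an AP-1-like string with any base at N. It was present in the ANKRD1 window, reading TGATTCA and beginning at -195, and in 7.71% of all windows. The serum response factor motif called the CArG box was present in 0 of the 8 windows and in 1.29% of all. No match overlapped another. A match is a string of letters and not a measured site, and the arrays carry no binding data.

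**Figure D1:**
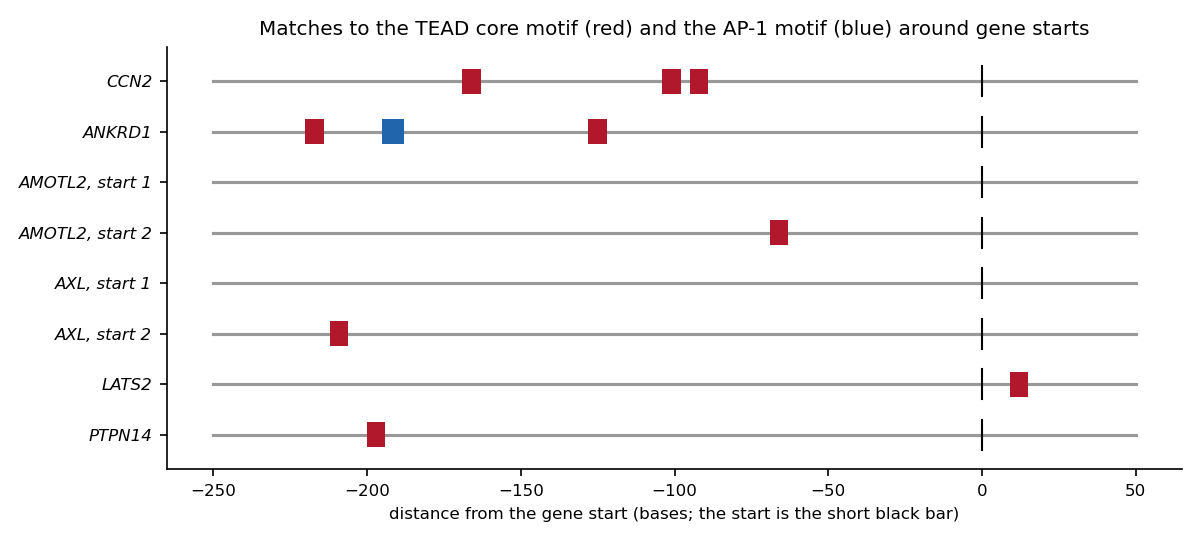
Positions of motif matches in the RefSeq windows, with the distance from the gene start in bases on the horizontal axis and 1 row per annotated start. Red boxes are GGAATG or its reverse complement and the blue box is TGANTCA; CCN2 has 3 red boxes and ANKRD1 has 2.

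The knockdown was checked first. YAP1 had log2 signals of 7.54, 7.52 and 7.48 after YAP siRNA, against 8.66, 8.75 and 8.68 after nonsense siRNA and 8.78, 8.62 and 8.69 in untreated cells. The YAP siRNA arrays lay below every control array, and the control groups overlapped. YAP1 fell to 44.0% of the nonsense siRNA level (adjusted p = 4.34e-09) and to 44.0% of the untreated level (adjusted p = 6.34e-09). Adjusted p-values here and below are from limma, two-sided and adjusted by Benjamini-Hochberg over all 18417 genes, with 0.05 as the threshold, and intervals are 95% intervals of the fitted difference. Liver cell markers were high, which does not tell apart the line names HUH and Hep3B: ALB, AFP, TF and FGB, which encode plasma proteins made by hepatocytes, lay at or above percentile 99.6 of genes by mean signal. PTPRC, a leukocyte marker, lay at percentile 3.13, and the endothelial genes CDH5 and KDR at 17.0 and 13.3, while the macrophage genes LYZ and CD68 lay at 88.0 and 69.8. Arrays 3 of YAP siRNA, 2 of nonsense siRNA and 3 of untreated cells deviated most from their group means in their groups (SD over genes 0.0792, 0.0850 and 0.0732 on the log2 scale, against 0.0546 to 0.0685 on the other 6 arrays) and had the lowest median signal of 198 small nucleolar and Cajal body RNA probe sets in their groups. Among 6 stromal markers, COL1A2 rose by 0.43 and PDGFRA by 0.35 against nonsense siRNA, and COL1A1 had 0.09 (adjusted p = 0.516). Against untreated cells PDGFRA rose by 0.26 (adjusted p = 0.0221), a call that held in 5 of 9 fits with 1 array left out (adjusted p up to 0.134, when array 2 of YAP siRNA was dropped) and was lost with all probe sets tested (0.107), while COL1A2 had 0.22 (adjusted p = 0.0710) and COL1A1 -0.14 (adjusted p = 0.252). Of the 6 markers, 4 had differences below 0 against untreated cells (median -0.04), and 1 against nonsense siRNA (median 0.07). The summed linear signal of the 6 ran from 1170 to 1245 after YAP siRNA, from 1017 to 1079 after nonsense siRNA and from 1158 to 1193 in untreated cells; the part of these differences in the results below was not tested.

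Of the 8 target genes, 5 fell against nonsense siRNA and 0 rose, where 4.53% of all genes passed, 2.61% lower and 1.92% higher. The same 5, CCN1, CCN2, ANKRD1, AMOTL2 and CRIM1, also fell against untreated cells and 0 rose, where 3.09% of all genes passed, 1.46% lower and 1.63% higher; both comparisons use the same YAP siRNA arrays. Read array by array, all 3 YAP siRNA arrays lay below all 6 control arrays in 6 genes, these 5 and LATS2, and 3.61% of all genes showed that order; 0 of the 8 showed the opposite order, which 4.29% of all genes showed. Set against 1 control at a time, the YAP siRNA arrays were lowest in 7 of the 8 genes against nonsense siRNA (8.71% of all genes), with PTPN14 the addition, and in 6 of the 8 against untreated cells (10.3% of all genes). The median difference over the 8 genes was -0.31 against nonsense siRNA and -0.29 against untreated cells, against 0.01 and -0.01 over all genes. Without array 3 of nonsense siRNA or array 2 of YAP siRNA the count against nonsense siRNA was 3 of 8, and without the 3 deviating arrays together the same 5 genes fell against each control. With all probe sets of the table tested, the count was 3 of 8 against each control. In bulk RNA, less RNA per cell and fewer cells that express a gene cannot be told apart.

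**Figure D2:**
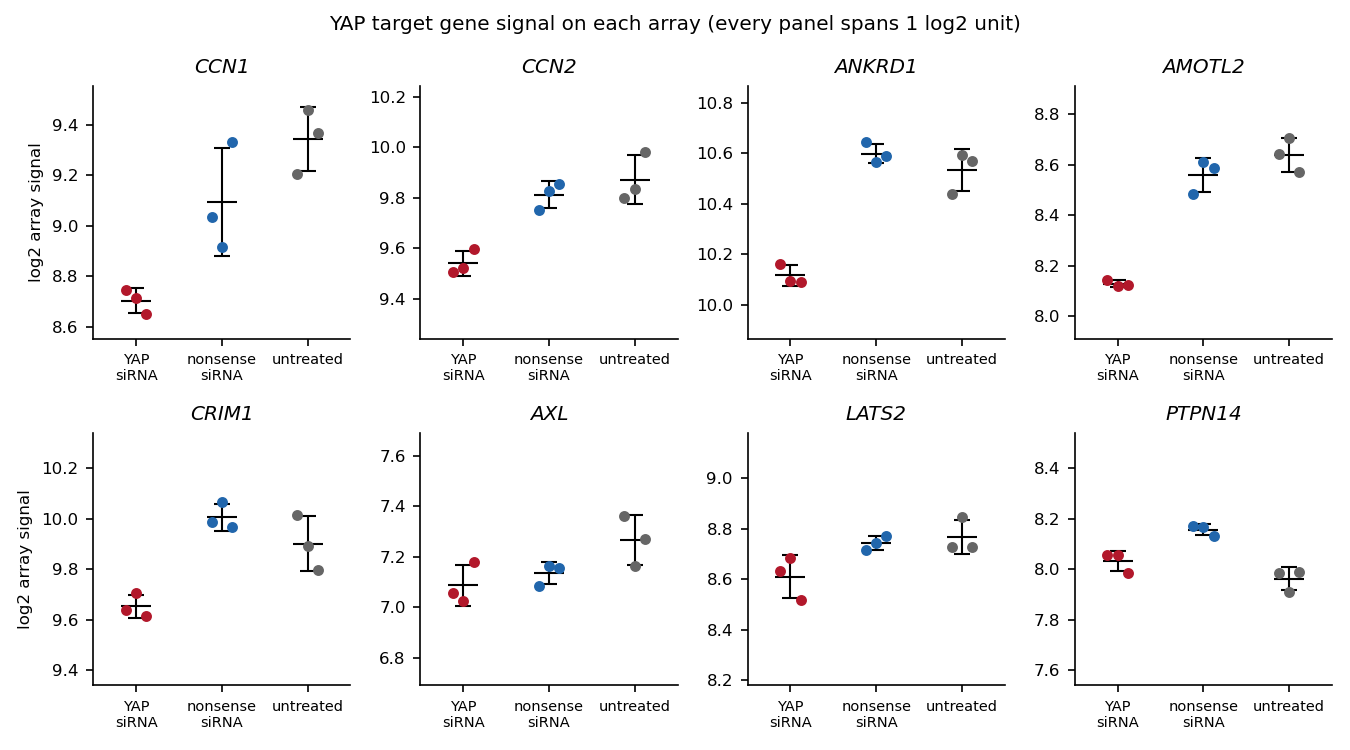
Log2 array signal of the 8 target genes on each of the 9 arrays, with YAP siRNA in red, nonsense siRNA in blue and untreated cells in grey. Points are arrays, black lines the mean and SD of 3 arrays, and every panel spans 1 log2 unit; in CCN1, CCN2, ANKRD1, AMOTL2, CRIM1 and LATS2 the red points lie below all others.

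CCN1 and CCN2 encode secreted matricellular proteins that bind integrins and are among the most widely used readouts of YAP activity. CCN1 had log2 signals of 8.75, 8.71 and 8.65 after YAP siRNA, against 9.03, 8.91 and 9.33 after nonsense siRNA and 9.21, 9.46 and 9.37 in untreated cells. The YAP siRNA arrays lay close together and under every control array, and the nonsense siRNA arrays were the most scattered of any group in the 8 genes (SD 0.21, n = 3). CCN1 fell by 0.39 against nonsense siRNA, to 76.3% of that level (interval -0.58 to -0.20, adjusted p = 0.0178), and by 0.64 against untreated cells, to 64.1% (interval -0.83 to -0.45, adjusted p = 0.000727). Of all genes, 10 had a lower difference than CCN1 against untreated cells and 145 against nonsense siRNA. The control groups differed by -0.25 in CCN1, nonsense siRNA minus untreated, which did not pass (interval -0.44 to -0.06, adjusted p = 0.158); array 3 of nonsense siRNA lay within the range of the untreated arrays and the other 2 below it. The fall against nonsense siRNA was lost without array 3 of nonsense siRNA (adjusted p = 0.0731), array 2 of YAP siRNA (0.0582) or array 3 of YAP siRNA (0.0720), and with all probe sets tested (0.160), while the fall against untreated cells passed in all 9 fits with 1 array left out.

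CCN2 had log2 signals of 9.51, 9.52 and 9.60 after YAP siRNA, against 9.75, 9.83 and 9.86 after nonsense siRNA and 9.80, 9.84 and 9.98 in untreated cells. The highest YAP siRNA array lay 0.16 below the lowest control array, and the control groups overlapped. CCN2 fell by 0.27 against nonsense siRNA, to 82.9% of that level (interval -0.40 to -0.15, adjusted p = 0.0138), and by 0.33 against untreated cells, to 79.5% (interval -0.46 to -0.21, adjusted p = 0.00489). Nonsense siRNA and untreated cells differed by -0.06 (adjusted p = 0.576). Without array 1 of YAP siRNA, array 2 of YAP siRNA or array 3 of nonsense siRNA, CCN2 missed the threshold against nonsense siRNA (adjusted p = 0.0693, 0.0591 and 0.0678), as it did after quantile normalization (0.0524) and with all probe sets tested (0.0730); against untreated cells it was lost with all probe sets tested (0.0525).

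ANKRD1 encodes an ankyrin repeat protein of the nucleus and, in muscle, of the sarcomere. Its log2 signals were 10.16, 10.10 and 10.09 after YAP siRNA, against 10.64, 10.57 and 10.59 after nonsense siRNA and 10.44, 10.59 and 10.57 in untreated cells. Every control array lay at least 0.27 above the highest YAP siRNA array. ANKRD1 fell by 0.48 against nonsense siRNA (SE 0.0557, adjusted p = 8.84e-05), to 71.6% of that level, the lowest difference among the 8 genes in that comparison, and by 0.42 against untreated cells (SE 0.0557, adjusted p = 0.000545), to 74.9%. The control groups differed by 0.07 (interval -0.05 to 0.18, adjusted p = 0.510). The fall against each control passed in all 9 fits with 1 array left out and in all 10 fits with another scaling, filter, probe set rule, variance model or choice of arrays.

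CRIM1 encodes a transmembrane protein with cysteine-rich repeats that binds bone morphogenetic proteins. It had log2 signals of 9.64, 9.71 and 9.62 after YAP siRNA, against 9.99, 10.07 and 9.97 after nonsense siRNA and 10.01, 9.89 and 9.80 in untreated cells. All YAP siRNA arrays were lowest, but the gap to the nearest control array, array 3 of untreated cells, was 0.09. CRIM1 fell by 0.35 against nonsense siRNA, to 78.3% of that level (SE 0.0608, adjusted p = 0.00274), and passed in all 9 fits with 1 array left out. Against untreated cells it fell by 0.25, to 84.2% (adjusted p = 0.0365), a call that held in 3 of the 9 fits. The adjusted p was 0.0571 without array 1 of nonsense siRNA, 0.177 and 0.103 without array 1 or 2 of untreated cells, and 0.145, 0.0729 and 0.0738 without array 1, 2 or 3 of YAP siRNA. It was also lost after median centring (0.0815) and with all probe sets tested (0.150). Nonsense siRNA minus untreated was 0.11 in CRIM1 (interval -0.02 to 0.23, adjusted p = 0.343).

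AXL encodes a receptor tyrosine kinase of the TAM family whose ligand is GAS6, and it was the dimmest of the 8, the only one with a mean signal under the median of 7.31 over genes. AXL had log2 signals of 7.06, 7.02 and 7.18 after YAP siRNA, against 7.08, 7.16 and 7.16 after nonsense siRNA and 7.36, 7.16 and 7.27 in untreated cells. The siRNA groups overlapped, and all 3 nonsense siRNA arrays lay below the untreated arrays, an order shown by 13.8% of all genes. For nonsense siRNA arrays 2 and 3 rounding hides the margin to the lowest untreated array (7.1611 and 7.1565 against 7.1637). The difference between YAP siRNA and nonsense siRNA was -0.05 (interval -0.18 to 0.08, adjusted p = 0.815). As array signal, the interval excludes a fall of the size fitted for CCN2, ANKRD1, AMOTL2, CRIM1 or CCN1 against that control. Signal over background was not analysed for this dim gene, so the interval does not exclude such a fall in its RNA. YAP siRNA and untreated cells differed by -0.18 (interval -0.31 to -0.05, adjusted p = 0.155), which passed with array weights (adjusted p = 0.0446) and in 0 of 9 fits with 1 array left out. Nonsense siRNA and untreated cells differed by -0.13 (adjusted p = 0.257).

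The remaining 3 genes encode inhibitors of YAP. AMOTL2, an angiomotin family protein that binds YAP and holds it in the cytoplasm, had log2 signals of 8.14, 8.12 and 8.12 after YAP siRNA, against 8.48, 8.61 and 8.59 after nonsense siRNA and 8.64, 8.70 and 8.57 in untreated cells. The YAP siRNA arrays were nearly equal (SD 0.01, n = 3) and stood 0.34 below the nearest control array, the widest gap among the 8 genes. AMOTL2 fell by 0.43 against nonsense siRNA (SE 0.0551, adjusted p = 0.000225), to 74.1% of that level, and by 0.51 against untreated cells (SE 0.0551, adjusted p = 0.000107), to 70.2%, and both calls held in all 9 fits with 1 array left out and in the 10 other fits. The controls differed by -0.08 (adjusted p = 0.431).

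LATS2, a kinase that phosphorylates YAP, had log2 signals of 8.63, 8.68 and 8.52 after YAP siRNA, against 8.72, 8.74 and 8.77 after nonsense siRNA and 8.73, 8.85 and 8.73 in untreated cells. The YAP siRNA arrays were again the 3 lowest, by a margin of 0.03. The differences were -0.13 against nonsense siRNA (interval -0.25 to -0.01, adjusted p = 0.270) and -0.16 against untreated cells (interval -0.28 to -0.03, adjusted p = 0.191), and neither passed. A two-sided exact permutation test of YAP siRNA against the 6 control arrays gave an unadjusted p = 0.0238 for LATS2. That is the smallest p this test gives for 3 arrays against 6, and all 6 genes whose arrays did not overlap reached it. The array order alone fixes this p, so it adds no support beyond that order. Of all genes, 3.61% showed the same order and 4.29% the opposite order. After centring each array on its median, the highest YAP siRNA array of LATS2 was 8.72 and the lowest control array 8.70, so that 5 genes then had all YAP siRNA arrays lowest.

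PTPN14, a tyrosine phosphatase that binds YAP, had log2 signals of 8.06, 8.05 and 7.99 after YAP siRNA, against 8.17, 8.17 and 8.13 after nonsense siRNA and 7.99, 7.91 and 7.99 in untreated cells. The order of the groups differed from that of the other 7 genes, with YAP siRNA between the controls and all nonsense siRNA arrays above all untreated arrays, an order shown by 8.90% of all genes. The difference was -0.12 against nonsense siRNA (interval -0.23 to -0.02, adjusted p = 0.233) and 0.07 against untreated cells (interval -0.04 to 0.18, adjusted p = 0.532). Nonsense siRNA minus untreated was 0.19 (interval 0.09 to 0.30, adjusted p = 0.0876), which passed with array weights (0.00860) and without the 3 deviating arrays (0.0307). The exact permutation p against the 6 control arrays was 0.690 for PTPN14 and 0.119 for AXL.

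**Figure D3:**
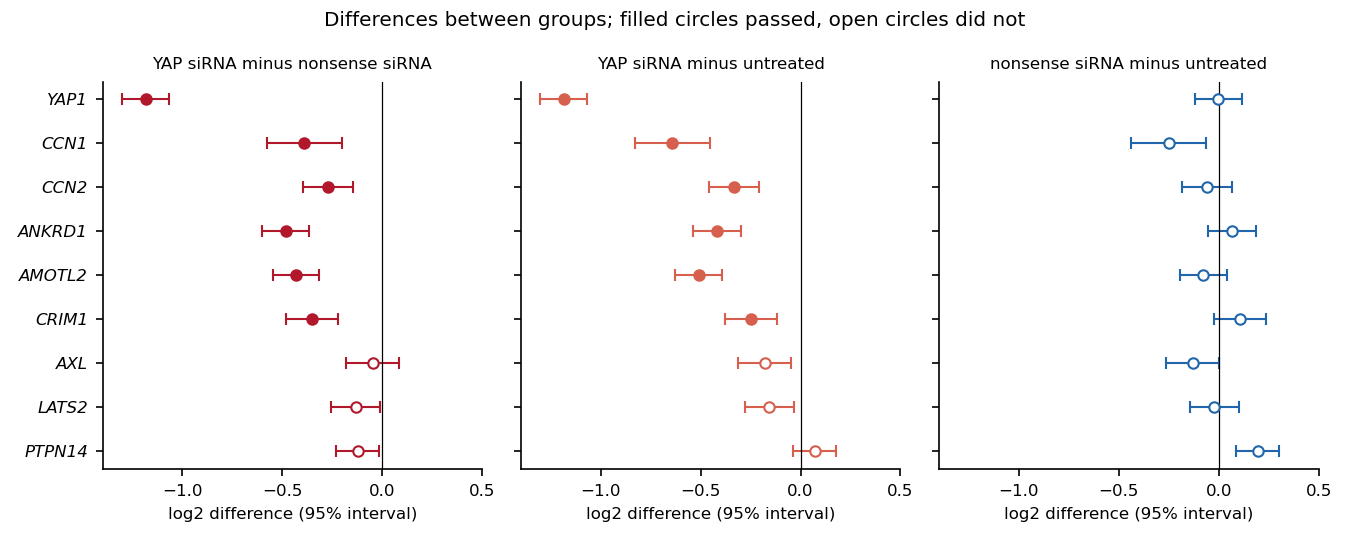
Fitted log2 differences of YAP1 and the 8 target genes with 95% intervals, for YAP siRNA minus nonsense siRNA, YAP siRNA minus untreated and nonsense siRNA minus untreated. Filled circles passed an adjusted p of 0.05 and open circles did not; 5 target genes are filled in each of the first 2 panels and 0 in the third.

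Nonsense siRNA against untreated cells joins any effect of transfection with that of the nonsense siRNA itself. In this comparison 0 of the 8 genes passed the threshold in limma, where 0.614% of all genes passed. At an unadjusted p under 0.05 there were 2, CCN1 and PTPN14, in opposite directions, where 3597 of all 18417 genes were under 0.05. With array weights these 2 passed (adjusted p = 0.0279 for CCN1), where 2620 of the 18417 genes passed. The 3 groups therefore ranked differently from gene to gene. Untreated cells were highest in CCN1, CCN2, AMOTL2, AXL and LATS2 by mean, and nonsense siRNA was highest in ANKRD1, CRIM1 and PTPN14, but the controls were not separated by the test in any of the 8. After median centring the small control difference of LATS2 turned from -0.02 to 0.01.

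The sizes can be set beside those of all genes. Against nonsense siRNA, 0.413% of genes had a lower difference than ANKRD1, 0.532% than AMOTL2, 0.787% than CCN1, 1.02% than CRIM1 and 2.09% than CCN2. LATS2, PTPN14 and AXL followed with 8.55%, 9.44% and 24.1%. Against untreated cells CCN1 was the most extreme with 0.0543%, followed by AMOTL2 with 0.130%, ANKRD1 with 0.299%, CCN2 with 0.646% and CRIM1 with 1.32%. Each of the 8 differed by less than YAP1 itself, whose log2 differences were -1.18 and -1.19. Among all genes, 480 of the 834 that passed against nonsense siRNA fell (57.6%), and 47.0% with quantile normalization; against untreated cells 47.3% of 569 fell, and 34.1% with median centring.

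**Figure D4:**
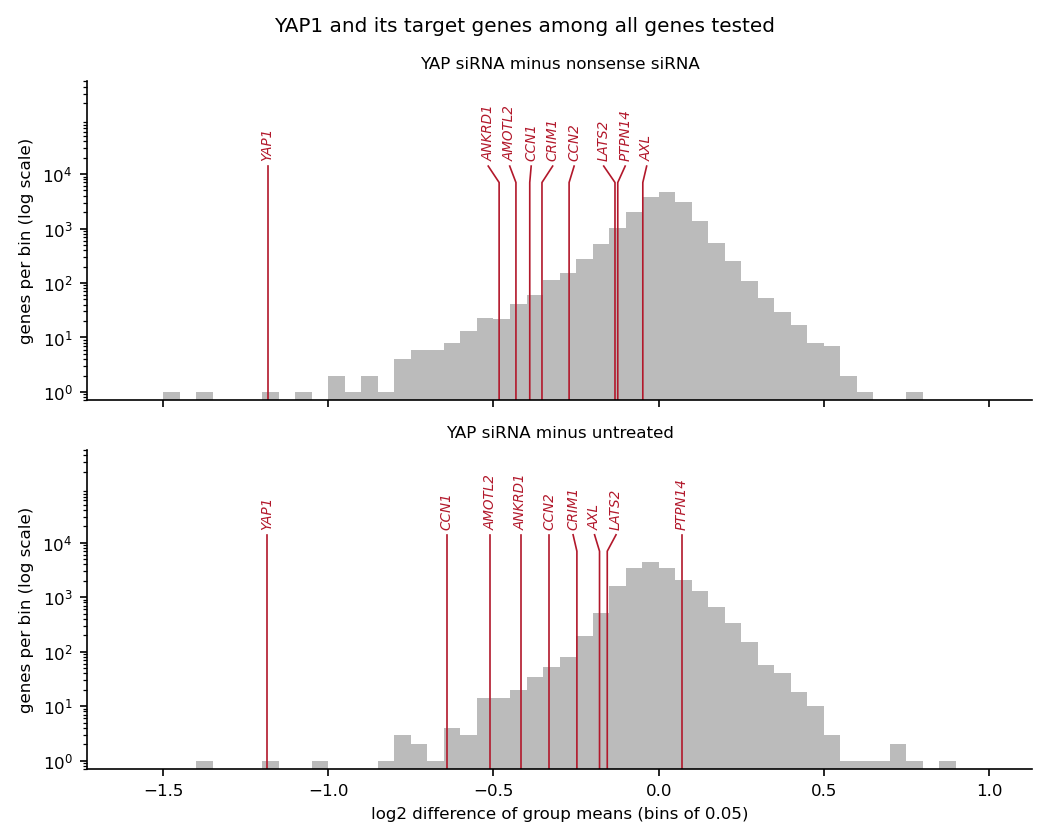
Histograms of the log2 difference over 18417 genes (grey, bins of 0.05, log scale), for YAP siRNA minus nonsense siRNA above and YAP siRNA minus untreated below. Red lines mark YAP1 and the 8 target genes; CCN1 lies further left in the lower panel, at -0.64, than in the upper, at -0.39, and PTPN14 changes sides.

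The 8 profiles over the 9 arrays were compared by the root mean square difference of their mean-centred log2 signals, a description that carries no test and in which arrays share their groups. The closest pair was ANKRD1 and AMOTL2, at 0.0928, and next came CCN2 with ANKRD1 and with AMOTL2, both within 0.113. The farthest was CCN1 and PTPN14, at 0.323. Among the 9208 other genes of at least median signal, those nearest to AMOTL2 were RAC1, a small GTPase gene, at 0.0504, the stress-induced gene NDRG1 at 0.0561 and BMP2, which encodes a bone morphogenetic protein, at 0.0628. Nearest to ANKRD1 were PIP5K1A, a phosphoinositide kinase gene, at 0.0564, SLC71A1 at 0.0589 and CCDC117 at 0.0620. CRIM1 was nearest to IGF1R, a growth factor receptor gene, at 0.0398, the transcription factor gene SOX6 at 0.0455 and WDFY3 at 0.0461, and CCN2 to GFOD3P at 0.0378, TLCD3A at 0.0461 and BLOC1S6 at 0.0470. The nearest to CCN1 lay farther off: NGRN at 0.116, the cationic amino acid transporter gene SLC7A1 at 0.128 and the immediate early gene IER3 at 0.130.

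Paralogs and other close relatives of the target genes were examined beside them. Of 15 relatives 0 passed in limma against nonsense siRNA or untreated cells, where 4.53% and 3.09% of all genes passed. In each comparison 2 relatives had an unadjusted p under 0.05, where 2904 of all 18417 genes did. With array weights, AMOT (0.18, adjusted p = 0.0291) and PTPN21 (-0.18, adjusted p = 0.00965) passed against nonsense siRNA, in opposite directions, where 2404 of all 18417 genes passed. Without weights the median differences of the relatives were 0.00 and -0.03. Among the other CCN genes, the difference against nonsense siRNA was 0.02 for CCN3 (interval -0.11 to 0.15), 0.16 for CCN4 (0.01 to 0.30), -0.07 for CCN5 (-0.22 to 0.07) and 0.00 for CCN6 (-0.12 to 0.11). The angiomotin relatives of AMOTL2 had positive values, 0.12 for AMOT (interval -0.02 to 0.26) and 0.10 for AMOTL1 (interval -0.01 to 0.21). LATS1, the other LATS kinase gene, had -0.10 (interval -0.22 to 0.03) and PTPN21, a phosphatase related to PTPN14, -0.19 (interval -0.30 to -0.07, adjusted p = 0.0711). For the muscle ankyrin repeat genes ANKRD2 and ANKRD23 the differences were 0.01 and 0.05, for the TAM receptor genes TYRO3 and MERTK both -0.08, and for the extracellular BMP regulators BMPER, CHRD and KCP -0.02, 0.04 and -0.02. The AXL ligand gene GAS6 and PROS1, which was listed with it, had 0.05 (adjusted p = 0.840) and 0.07 (adjusted p = 0.729). In every group the mean signals of CCN3, CCN4, CCN6, ANKRD2, ANKRD23, AMOT, BMPER, CHRD and GAS6 lay under the median of 7.31 over genes. Signal over background was not analysed, so values near 0 in these genes may not show how their RNA behaved. Of 13 ligands and receptors listed for the 8 proteins, 1 fell against nonsense siRNA (7.69%, against 2.61% of all genes): BMP2, whose protein is of the family that CRIM1 binds, fell by 0.345 (SE 0.0554, adjusted p = 0.00153). Against untreated cells 2 fell (15.4%, against 1.46% of all genes), BMP2 by 0.41 (adjusted p = 0.000574) and BMP4, named after its value was seen, by 0.21 (adjusted p = 0.0472), though BMP4 passed in only 2 of 9 leave-one-out fits (adjusted p up to 0.199, reached when array 1 of YAP siRNA was dropped).

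Other genes that are often used as YAP readouts were counted too. Of 14 further genes of a published YAP and TAZ target signature, 1 fell and 1 rose against each control, with median differences of -0.04 and -0.04. A single gene is 7.14% of the list, where 2.61% of all genes fell and 1.92% rose against nonsense siRNA, and 1.46% fell and 1.63% rose against untreated cells. TGFB2, a growth factor gene, fell by 0.23 against nonsense siRNA (adjusted p = 0.0326) and by 0.32 against untreated cells (adjusted p = 0.00604). NT5E, which encodes a surface nucleotidase, rose by 0.24 (adjusted p = 0.0384) and 0.39 (adjusted p = 0.00193). Against nonsense siRNA, TGFB2 passed in 4 of 9 leave-one-out fits (adjusted p up to 0.138, when array 3 of YAP siRNA was dropped) and NT5E in 2 of 9 (up to 0.174, when array 2 of YAP siRNA was dropped), and with all probe sets tested both were lost (0.116 and 0.143); against untreated cells TGFB2 was then lost too (0.0566). These and the following genes share samples with the 8, and the shares were not tested against each other.

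Among 10 genes of the YAP complex, YAP1 itself included, 3 fell and 0 rose against each control, where 2.61% and 1.46% of all genes fell, with median differences of -0.15 and -0.18. YAP1, the target of the siRNA, is 1 of the 3 in each comparison. TEAD1, which encodes a transcription factor that tethers YAP to DNA, fell by 0.42 against nonsense siRNA (SE 0.0597, adjusted p = 0.000556) and by 0.24 against untreated cells (adjusted p = 0.0408); the second call held in 3 of 9 leave-one-out fits (adjusted p up to 0.151, when array 2 of untreated cells was dropped). VGLL3, a TEAD cofactor gene, fell by 0.26 against nonsense siRNA (adjusted p = 0.0445), a call that held in 4 of 9 such fits (adjusted p up to 0.202, when array 1 of YAP siRNA was dropped). With all probe sets tested, TEAD1 against untreated cells (0.153) and VGLL3 against nonsense siRNA (0.197) were lost. TEAD2, named after its value was seen, fell by 0.42 against untreated cells (adjusted p = 0.00116) and had -0.18 against nonsense siRNA (adjusted p = 0.130). WWTR1, which encodes the YAP paralog TAZ, had 0.07 and 0.08 (adjusted p = 0.635 and 0.518).

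Of 22 upstream Hippo pathway genes, which leave out LATS2, AMOTL2 and PTPN14, 7 fell and 0 rose against nonsense siRNA and 4 fell and 0 rose against untreated cells, where 2.61% and 1.46% of all genes fell, with median differences of -0.10 and -0.05. Of these calls, SAV1, which encodes a scaffold of the upstream kinases and was named after its value was seen, fell by 0.33 against nonsense siRNA (adjusted p = 0.0336) but held in 3 of 9 leave-one-out fits (adjusted p up to 0.176, when array 1 of nonsense siRNA was dropped) and was lost with all probe sets tested (0.203). LIMD1, which encodes a LIM protein and was also named after its value was seen, fell by 0.29 against nonsense siRNA (adjusted p = 0.00454) and by 0.24 against untreated cells (adjusted p = 0.0221), the second of which held in 5 of 9 such fits (adjusted p up to 0.103, when array 2 of untreated cells was dropped). FAT4, an atypical cadherin gene, fell by 0.42 against nonsense siRNA (adjusted p = 0.000132), and MOB1B, which encodes a coactivator of the LATS kinases, by 0.36 (adjusted p = 0.00341), but against untreated cells they had -0.19 and -0.16 (adjusted p = 0.0589 and 0.245). WWC2 fell by 0.46 against nonsense siRNA (adjusted p = 0.000685) and its paralog WWC1, the KIBRA gene, by 0.36 (adjusted p = 0.00373). Against untreated cells WWC2 fell by 0.28 (adjusted p = 0.0316, up to 0.159 when array 1 of untreated cells was dropped, and held in 4 of 9 such fits) and WWC1 by 0.38 (adjusted p = 0.00341). AJUBA, whose LIM protein binds and inhibits LATS kinases, fell by 0.33 (adjusted p = 0.00431) and 0.31 (adjusted p = 0.00909), the second of which held in 7 of 9 such fits (adjusted p up to 0.0560, when array 2 of untreated cells was dropped). With all probe sets tested, the calls against untreated cells of WWC1 (0.0559), WWC2 (0.168), AJUBA (0.0732) and LIMD1 (0.0810) were all lost. Between the controls, nonsense siRNA minus untreated had a median of 0.06 over the 22 genes, against -0.02 over all genes. Of the 22, 4 were below 0 and 0 passed. The difference was 0.23 for FAT4 (adjusted p = 0.0522), 0.21 for MOB1B, 0.21 for SAV1 and 0.18 for WWC2. For WWC1, AJUBA and LIMD1 it was -0.02, 0.02 and 0.05. The part of these control differences in the falls against nonsense siRNA was not tested.

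**Figure D5:**
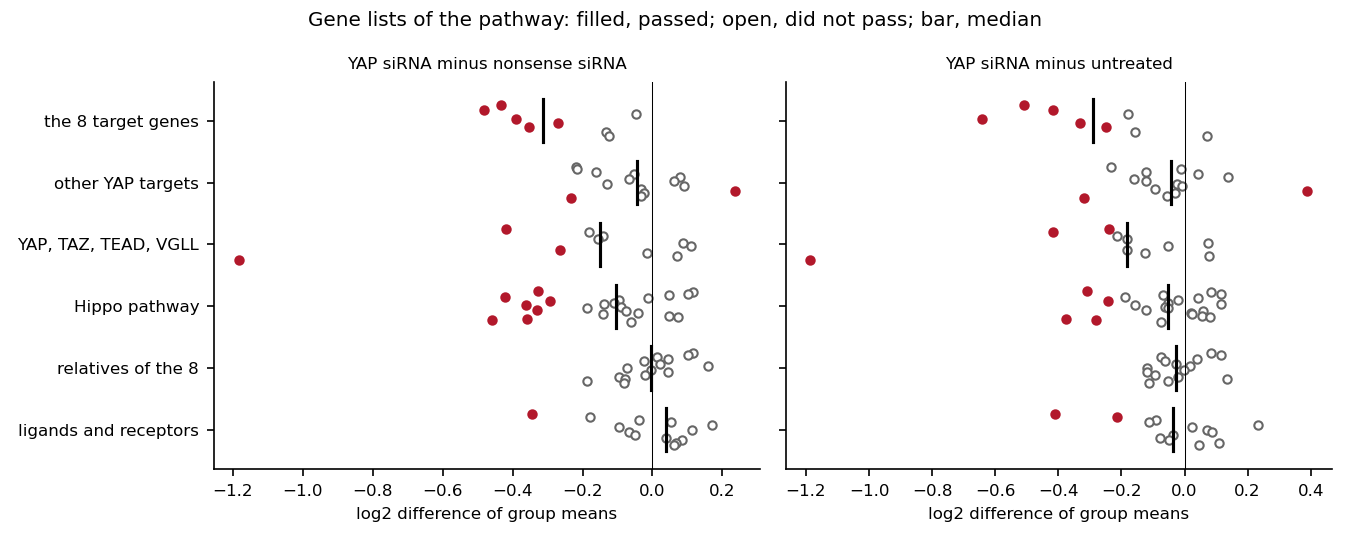
Log2 differences of every measured gene of the 6 lists, for YAP siRNA minus nonsense siRNA on the left and YAP siRNA minus untreated on the right; red points passed, open points did not, and black bars are list medians. AMOT, AMOTL1, LATS1 and PTPN21 are in both the Hippo list and the list of relatives; the target genes have medians of -0.31 and -0.29, and 0 of the 15 relatives are red.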

How the data were processed

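Total RNA of 9 Hep3B samples was labelled as biotinylated cRNA by the Affymetrix protocol, per the labels' protocols. The deposited values are log2 array signals; that unit was read from their range, and the authors' background correction, summarisation and normalization were not stated in the labels or headers used. No scaling or pseudocount was added. Probe sets were named from the platform annotation: of 33297 probe sets, 19460 had 1 gene, 1754 had several and 12083 were not listed, and where a gene had more than 1 (769 genes) the brightest was kept, which left 18417 genes. In limma 3.58.1 (R 4.3.3) a linear model with 1 mean for each of the 3 groups used the 9 arrays together, with empirical Bayes variances and Benjamini-Hochberg adjustment over all genes. Exact permutation tests used scipy 1.17.1. Sequences came from RefSeq (GRCh38.p14). The target genes, the other lists and the alternatives were chosen with earlier results of these data known. The rule named the 8 genes, YAP1, the relatives, GAS6, PROS1 and the 3 nearest profiles. From each pathway list it named up to 5 genes that passed against nonsense siRNA. Some listed marker genes are not reported here. Replicate numbers were not treated as pairs: deviations from group means of same-numbered arrays correlated at -0.34 to 0.34, over 0.1 in 3 of 9 pairs.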

Additional observations from a re-analysis of the deposited data

How the results depend on the processing

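Over all alternatives to the differences of the 8 target genes in the 3 comparisons, 450 values kept direction and side of the threshold, 21 lost the call, 4 gained it and 2 changed sign. Only the differences that passed at first, 5 against nonsense siRNA and 5 against untreated cells, could lose a call. The 450 thus include differences that never passed and stayed so. The number of target genes that passed was 5 against nonsense siRNA and 5 against untreated cells; it was 3 and 3 with all probe sets tested and 3 against nonsense siRNA at an adjusted p of 0.01, and with 1 array left out it ran from 3 to 5 and from 4 to 5. For nonsense siRNA against untreated cells it was 0, but 2 with array weights and 1 without the 3 deviating arrays, and 0 to 0 with 1 array left out. The cause of these changes was not tested, except that the stricter threshold lowers counts by construction. Over all genes, the 834 against nonsense siRNA became 424 with all probe sets tested, 2404 with array weights, 396 at 0.01, 1287 without the 3 deviating arrays and 426 to 1231 with 1 array left out. The 569 against untreated cells became 205, 1759, 250, 1560 and 279 to 775. The 113 between the controls became 0, 2620, 11, 2319 and 11 to 1470, and also 49 with median centring, 67 with only the 6 arrays compared and 65 with the replicate number as a block. The replicate block left 5, 5 and 0 target genes. Differences near 0 changed sign. The control difference turned to 0.0066 for LATS2 and 0.0279 for YAP1 with median centring, and ran from -0.0431 to 0.0161 and from -0.0391 to 0.0375 with 1 array left out. Against nonsense siRNA, CCN3 and CCN6 turned to -0.0569 and 0.0210 with array weights and to -0.0372 and 0.0208 without the 3 deviating arrays, and PROS1 to -0.0143 with the mean of its probe sets. With 1 array left out these differences ran from -0.0124 to 0.0746 for CCN3, -0.0205 to 0.0166 for CCN6, -0.0669 to 0.0029 for BMPER, -0.0758 to 0.0219 for KCP, -0.0487 to 0.0667 for ANKRD2, -0.0133 to 0.11 for CHRD and -0.0236 to 0.11 for GAS6. After quantile normalization, tried after seeing the data, 12 of the 15 nearest profiles were kept. AXL had the lowest signal of the 8; signal over background was not analysed here.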
